A study of Mus musculus with 2 samples.

Results

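Deep-layer projection neurons expressing *Fezf2* were chosen by their own transcript counts in 2 coronal brain sections. A segmented cell with at least 20 panel transcripts was a member when *Fezf2*, *Mc4r* and *Ntsr1* together had at least 3 counts and at least 3% of its transcripts, and when it also held at least 1 *Tbr1* transcript. Members had fewer than 2 counts of *Gad1* and *Gad2* together, and the sum over *Fezf2*, *Mc4r* and *Ntsr1* had to be larger than *Slc17a7* plus *Nr4a2* and larger than *Unc5d* plus *Sstr2*. The rule was met by 7728 of 156481 cells of that depth. Of these, 1574 lay in the control section (2.85% of 55231 cells, 95% interval 2.71 to 2.99) and 6154 in the KO section (6.08% of 101250 cells, 5.93 to 6.23).

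The neurons of the deep cortical layers are among the earliest to be born and send their axons out of the cortex, to the thalamus, brainstem and spinal cord. *Fezf2*, a zinc finger transcription factor, directs cells towards this subcortical projection identity, and *Tbr1*, a T-box factor, is the standard marker of corticothalamic neurons of layer 6. *Ntsr1*, the neurotensin receptor used as a label of corticothalamic cells, and *Mc4r*, the melanocortin receptor, are G protein-coupled receptors on the cell surface.

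The measurement was MERFISH, in which single RNA molecules are decoded in tissue from repeated rounds of imaging. Both brains were E16.5, fresh-frozen and cut at 10 µm. The control was *Sst-Cre/tdTomato* and the KO *Sst-Cre/tdTomato/Dnmt1 loxP2*, so both carried the Cre driver and the reporter, and only the KO carried the floxed *Dnmt1* allele, the gene of a DNA methyltransferase. Cre is driven from *Sst*, the somatostatin gene of cortical interneurons, and not from a gene of the excitatory neurons described here. The panel had no *Dnmt1* probes, and the deletion itself was not measured. With 1 section per group there was no replicate, no test was run, and run and genotype cannot be told apart. Intervals of shares and counts are exact 95% intervals for counting error alone, those of median depths and distances are 95% intervals over cells, and those of ratios pair opposite ends of both count intervals and are wider.

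The sections differed in depth. Cells held a median of 20 panel transcripts in the control and 101 in the KO, from 108533 and 110004 segmented cells. The pallium, the part of the section with the developing cortex, measured 3.79 and 3.67 mm² and had 14859 (46.4%) and 32160 (96.1%) of its cells at the minimum of 20. Members held a median of 40 transcripts in the control (5th to 95th percentile 22 to 81) and 108 in the KO (45 to 252), and 69936 and 769078 transcripts in all. Their median volume was 1227 µm³ in the control and 764 µm³ in the KO, against 1239 and 828 µm³ in the other pallial cells. Since the rule counts transcripts, comparisons of sections that rest on it were also made with transcripts thinned at random.

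*Fezf2* had more counts in members than *Mc4r* or *Ntsr1* in both sections. Its mean was 3.56 ± 1.93 counts (SD over 1574 cells) in control members and 6.76 ± 5.15 (SD over 6154 cells) in KO members, or 80145 and 54108 counts per 1000000 panel transcripts (CPM). *Fezf2* had the most counts of *Fezf2*, *Mc4r* and *Ntsr1* in 83.7% of control members (81.7 to 85.5) and 86.5% of KO members (85.6 to 87.3). The sign of this difference turned with the control hemisphere used. *Mc4r* led in 8.20% and 7.43%, *Ntsr1* in 1.84% and 1.20%, and the remainder were ties. *Tbr1* was at 71708 CPM in control members and 61883 in KO members, *Mc4r* at 16143 and 9940, and *Ntsr1* at 6592 and 3699. Most members were thus led by *Fezf2*, and 97.3% of control and 98.0% of KO members held at least 1 of its transcripts. *Fezf2* without either receptor was found in 45.7% and 38.0%. How many members would have passed on *Fezf2* counts alone was not computed. These values chose the members and describe them only.

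The count threshold passed close to many control members. A sum of exactly 3 was held by 565 control members (35.9%) and 694 KO members (11.3%), while 852 control and 477 KO cells missed the rule by a sum of 2 alone. The percent threshold worked mostly in the KO, where 941 members lay at 3% to under 4% and 680 cells missed it at 2% to under 3% alone. The corresponding control numbers were 23 and 7. A missing *Tbr1* transcript alone kept out 303 control and 608 KO cells.

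Most members lay in the cortex, by an outline that was not independent of the rule. Of control members 1569 (99.7%) and of KO members 6119 (99.4%) were inside the pallial outline, which held 26.9% and 31.8% of all cells at the minimum. Inside it they formed a band below the pial surface, running from the midline around both hemispheres. The outline was drawn from pallial genes that included *Fezf2* and *Tbr1*, so part of this share was given by its construction. Drawn without them it was smaller, at 2.58 and 2.32 mm², and held 76.0% of control and 55.7% of KO members. Members lay close to each other. On average 35.1% (34.3 to 35.8) of the 10 cells nearest to a control member and 60.1% (59.7 to 60.5) of those nearest to a KO member were members. The corresponding share around the other pallial cells was 7.67% in the control and 9.52% in the KO. With the KO thinned to the control's total of transcripts, the share around KO members was 27.2%, below the control value.

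**Figure D1:**
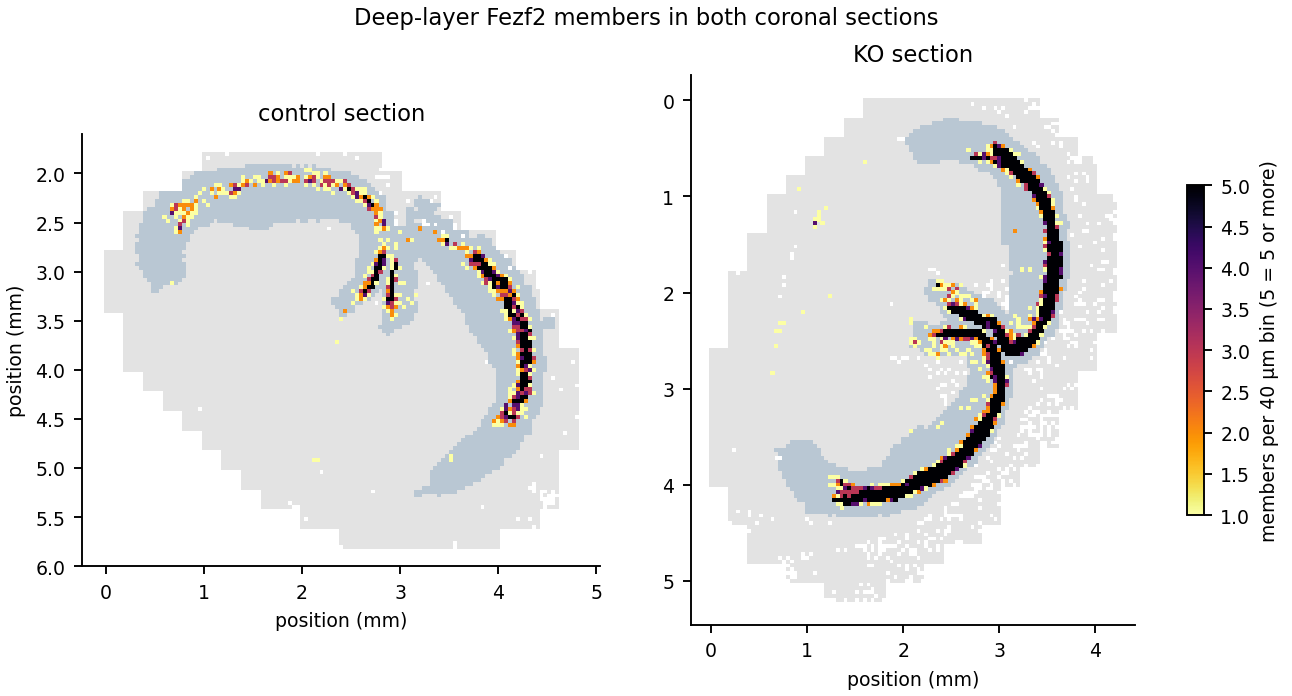
Position in mm on both axes of the control and KO sections, in bins of 40 µm coloured by the number of members (5 stands for 5 or more), over bins with pallial cells (blue-grey) and other cells (light grey). In each section members form a band under the pial edge, and 99.7% (control) and 99.4% (KO) of them lie inside the outline drawn with *Fezf2* and *Tbr1*, against 76.0% and 55.7% for that drawn without them.

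Position within the cortical wall was not itself used by the rule, but its scale came from the outline drawn with *Fezf2* and *Tbr1*. Relative depth was 0 at the outer border of the outline, taken as the pial edge. It was 1 at the inner border, taken as the ventricular edge. With the outline drawn without the rule genes the member medians were 0.344 in the control and 0.280 in the KO. The median member lay at 0.341 (0.333 to 0.348) in the control and at 0.286 (0.283 to 0.292) in the KO, while the other pallial cells had medians of 0.442 and 0.510. From the 5th to the 95th percentile control members spanned 0.197 to 0.607 and KO members 0.103 to 0.572. They lay outside the cells in which *Slc17a7*, the vesicular glutamate transporter, and *Nr4a2*, a nuclear receptor of the subplate, exceeded the sum of the rule genes, which had medians of 0.470 in the control and 0.428 in the KO (873 and 1421 cells). Farther in were the cells led by *Unc5d*, a netrin receptor of migrating young neurons, and *Sstr2*, a somatostatin receptor, at 0.760 and 0.752. This order from outside to inside was the same in both sections.

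The difference in depth between the sections was 0.055 of the wall, or 182 (177 to 190) against 150 (146 to 150) µm from the pial edge. With every cell thinned to 25 transcripts the medians were 0.342 and 0.261. Members peaked in the fourth depth bin of 10 in the control, where they made up 26.9% of the cells, and in the next bin outward in the KO, where they made up 44.3%. In the outermost pair of bins they made up 0.556% and 4.67% in the control but 13.0% and 27.3% in the KO. After thinning these shares were 0.103% and 1.54% in the control and 3.28% and 7.0% in the KO, so the KO members reached farther out on either scale. They reached farthest near the midline. Within 300 µm of it the 5th percentile of member depth was 0.154 in the control and 0.062 in the KO, and beyond that 0.216 and 0.157. Position inside the wall also differed between hemispheres of the same section, by 0.359 against 0.319 in the control and 0.278 against 0.297 in the KO. Transcripts of genes of the outer border did not all shift with the members. *Dcn*, a proteoglycan gene of the meninges, had a median depth of 0.0790 in the control and 0.0556 in the KO, whereas *Reln*, made by Cajal-Retzius cells at the surface, was at 0.124 and 0.131. The *Fezf2* transcripts of all pallial cells at the minimum, members or not, had medians of 0.333 and 0.303.

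**Figure D2:**
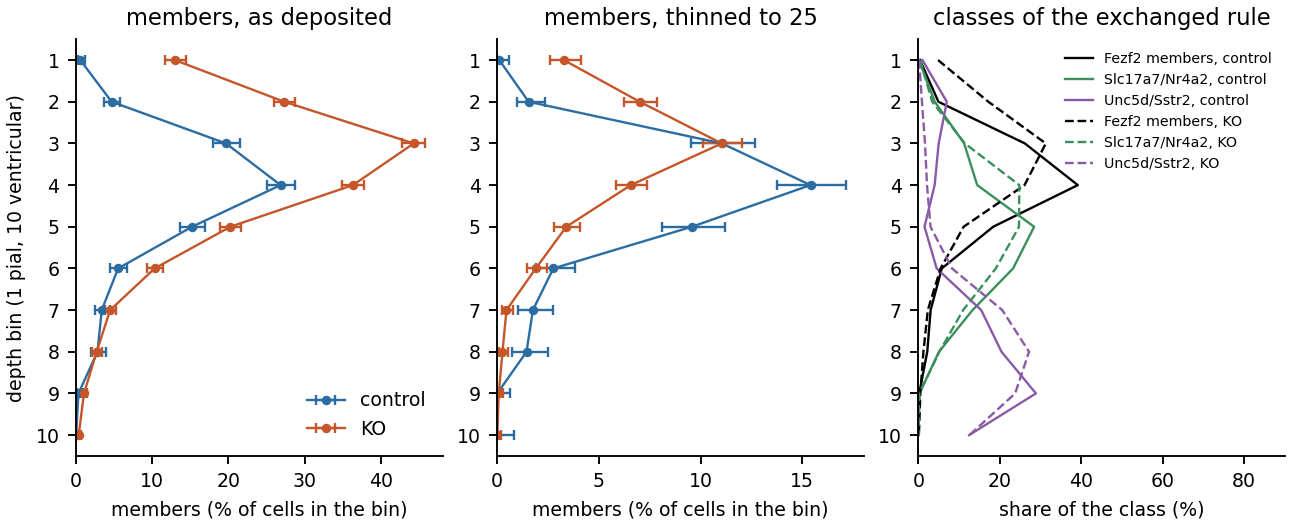
Depth bin (y axis, 1 pial to 10 ventricular) against the percent of the bin's cells that were members, as deposited (left) and with every cell thinned to 25 transcripts (middle), with exact binomial 95% intervals, and against the percent of each class in the bin (right, control solid and KO dashed). As deposited the share peaks at 26.9% in the control and, 1 bin farther out, at 44.3% in the KO, and the classes excluded by the rule lie deeper.

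Members that differed in their leading gene differed in position. Those led by *Fezf2* had median depths of 0.332 in the control and 0.277 in the KO, and those led by *Mc4r* lay deeper, at 0.415 and 0.363. Members led by *Ntsr1* were at 0.382 and 0.346, from only 29 control and 74 KO cells. Cells whose sum came from *Fezf2* alone were the most superficial of these, at 0.312 and 0.260. The order was the same in both sections.

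Members made up 10.6% (10.1 to 11.1) of the control pallium and 19.0% (18.6 to 19.5) of the KO pallium, a log2 ratio of 0.85. With every cell thinned to 25 transcripts the order was the other way round. The control then had 682 members in 11445 cells (5.96%, 5.53 to 6.41) and the KO 1286 in 31606 (4.07%, 3.85 to 4.29), which is a log2 ratio of -0.55. Cells of like depth gave both orders. Among cells with 20 to 29 transcripts members were 5.96% in the control and 4.50% in the KO, and with 30 to 39 transcripts 11.6% and 8.31%. At 50 to 69 transcripts the shares were 16.7% and 17.5%, and at 70 to 99 transcripts 15.6% and 23.4%. No direction of the share between control and KO could be read from these sections, because it turned with the number of transcripts compared.

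**Figure D3:**
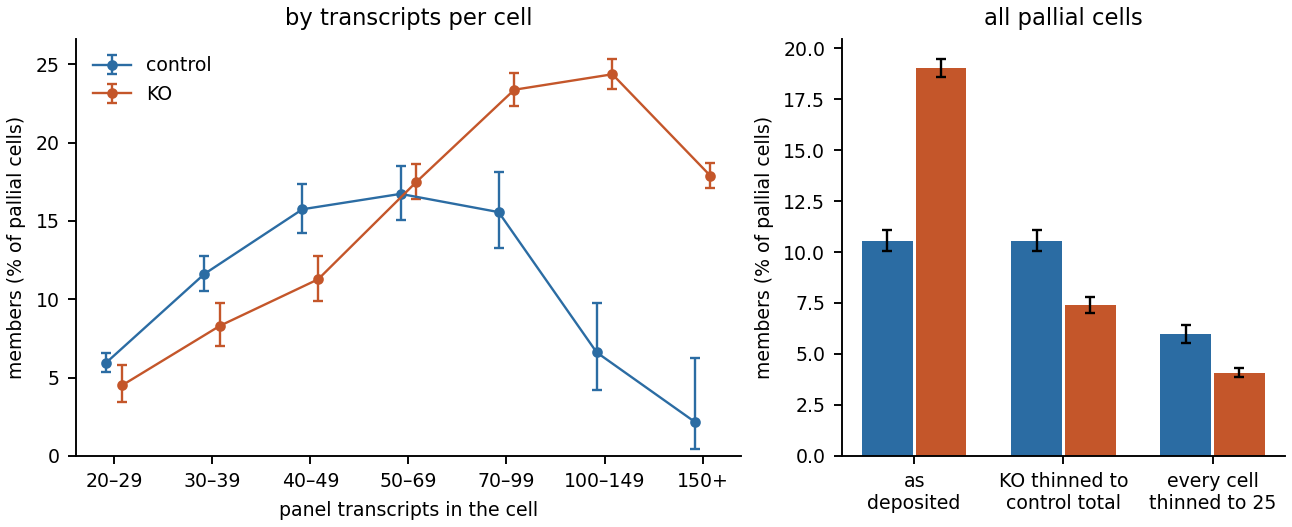
Members as a percent of pallial cells in the control and KO sections, by number of panel transcripts per cell (left, points) and over all pallial cells (right, bars), as deposited and after thinning, with exact binomial 95% intervals. The control share is higher at 20 to 29 transcripts (5.96% against 4.50%) and after thinning (5.96% against 4.07%), and the KO share at 70 to 99 (23.4% against 15.6%).

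The label was checked with genes that the rule did not use. Of 26 deep-layer genes written down, 12 were on the panel, and together they made up 36176 CPM in control members and 38074 in KO members, against 17734 and 18386 in the other pallial cells. Of these, 5 were at least 2-fold higher in members in both sections, where 4.08% of the 490 genes outside the rule were (20 genes, or 3.27% with the KO thinned). In single sections 2-fold was reached by 6.53% in the control and 5.92% in the KO. The median log2 ratio of the 12 genes was 0.51 in the control and 0.55 in the KO, against -0.38 and -0.44 over all 490. *Syt6*, a synaptotagmin of layer 6 corticothalamic cells, was at 7321 CPM in control and 5076 in KO members, with log2 ratios of 2.10 (1.88 to 2.32) and 2.03 (1.94 to 2.12). *Bcl11b*, the transcription factor CTIP2 of subcerebral projection neurons, was at 10767 and 12423 CPM, with log2 ratios of 1.17 (1.01 to 1.33) and 1.26 (1.21 to 1.31). *Crym*, which encodes the thyroid hormone binding protein crystallin mu, had ratios of 1.71 and 2.02. Most of its counts in members lay within 300 µm of the midline, 41 against 8 farther out in the control and 460 against 114 in the KO. Farther out it was at 153 CPM in members and 115 in the other pallial cells in the control, and at 199 and 100 in the KO. It was thus below 2-fold there in both sections. *Foxp2*, a forkhead factor of layer 6, had 1.47 (0.51 to 2.40) and 1.56, and *Rprm*, a cell cycle regulator used as a layer 6 marker, 1.11 and 1.29. *Rxfp1* and *Tshz2* of the same list were at least 2-fold lower in members in both sections. The other 5 genes of the list were not called. *Foxp1* had 0.73 and 1.01, *Crim1* 0.17 and 0.09, *Trhr* 0.28 and 0.02, *Etv1* 0.05 and -0.65, and *Pou3f1* -0.31 and -0.44. The label thus rested on 5 of the 12 markers outside the rule. Within 300 µm of the midline *Foxp2* was at 116 CPM (2 counts) in control members and 130 in the other pallial cells. In the KO it was at 145 and 213 there. *Rprm* was at 3665 and 2403 CPM near the midline in the control, and at 5249 and 2763 in the KO. *Foxp2* and *Rprm* were thus below 2-fold near the midline in both sections. With the other pallial cells weighted to the depth bins of the members, *Bcl11b* (0.62 and 0.79) and *Rprm* (0.28 and 0.57) were below 2-fold and 3 of the 12 were left.

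Genes of other classes were mostly low. Of 9 radial glia genes on the panel 8 were at least 2-fold lower in members in both sections, with list medians of -2.93 and -2.58. The same held for 25.1% of the 490 genes. *Top2a*, a topoisomerase of dividing cells, had log2 ratios of -3.83 and -3.46, *Ccnd2*, a cyclin, -2.49 and -2.48, and *Eomes*, the T-box factor of intermediate progenitors, -2.36 and -2.74. The 5 Cajal-Retzius genes, the 5 mural genes and the 5 oligodendrocyte precursor genes on the panel were all lower, as were 3 of 4 microglial and 3 of 4 endothelial genes. Interneuron genes were lower at 9 of 13 and had list medians of -1.48 and -1.95, but *Npy*, a neuropeptide of interneurons, was higher in members (1.12 and 1.23). Their summed level in members was 10710 CPM in the control and 9614 in the KO, against 22799 and 22757 in the other cells. The limit on *Gad1* and *Gad2* kept interneurons with 2 or more of these counts out of the members, but not out of the other cells. Part of the difference in interneuron genes was thus given by the rule. Among the 14 striatal genes *Drd1*, the dopamine D1 receptor, was higher and 4 were lower. Transcripts of neighbouring cells taken in by the segmentation were not measured separately.

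Upper-layer genes did not move together. Of the 6 on the panel, 1 was at least 2-fold higher and 1 at least 2-fold lower in members in both sections. The list medians were -0.29 in the control and -0.60 in the KO. *Cux2*, a homeobox gene of upper-layer neurons, was lower in members, at 3961 CPM in the control and 3102 in the KO. Its log2 ratios to the other pallial cells were -1.26 and -1.93. *Rorb*, a nuclear receptor known as a marker of layer 4, was higher in members, with 1.57 and 1.96. The subplate list of 6 genes had medians of -0.47 and -0.80, and *Il1rapl2*, an interleukin receptor accessory protein, was lower in both sections.

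Besides *Syt6*, *Rorb*, *Drd1* and *Bcl11b*, the 10 most enriched genes at or above the panel's median level took in those that follow. *Tox*, a nuclear HMG box factor, was at 8493 CPM in control and 13293 in KO members, with log2 ratios of 1.67 (1.48 to 1.86) and 2.08 (2.02 to 2.13). *Wnt7b*, a secreted Wnt ligand, was at 22549 and 25277 CPM, with ratios of 1.39 and 1.29. The adhesion molecules *Cdh13*, a T-cadherin, and *Cadm1*, of the immunoglobulin family, had 1.27 and 1.60, and 1.18 and 1.19. *Necab1*, a calcium-binding protein, had 1.47 and 1.69, and *Adora1*, the adenosine A1 receptor, 1.19 and 1.15. The lowest were *Dcn* (-5.12 and -5.14), *Ndnf* of Cajal-Retzius cells (-3.61 and -4.92), *Ebf3* (-4.12 and -3.55), *Grin3a*, an NMDA receptor subunit (-3.64 and -3.51), and *Igfbp5*, a binding protein of insulin-like growth factors (-3.55 and -3.49). Each of these genes had the same direction in both sections, which the choice by the ratios of both sections fixed in advance. By function, *Cdh13* was higher and 3 were lower of 25 axon guidance and adhesion genes, *Kcng1* higher and 2 lower of 14 ion channel genes, and *Wnt7b* higher and 2 lower of 5 ligand and receptor genes written down for interneurons and cortical cells, among them *Sstr2* of the rule. Of 30 peptide receptor genes *Mc4r* and *Ntsr1* of the rule were higher and 2 were lower. Each family thus had at most 1 higher gene outside the rule, where 4.08% of the 490 genes were higher and 25.1% lower, and the axon guidance and adhesion genes had medians of -0.29 and -0.60. With the other pallial cells weighted to the depth bins of the members, 4 of the 20 genes were at least 2-fold higher in both sections. They were *Syt6* (1.30 and 1.44), *Foxp2* (1.14 and 1.52), *Crym* (1.08 and 1.20) and *Tox* (1.03 and 1.69).

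**Figure D4:**
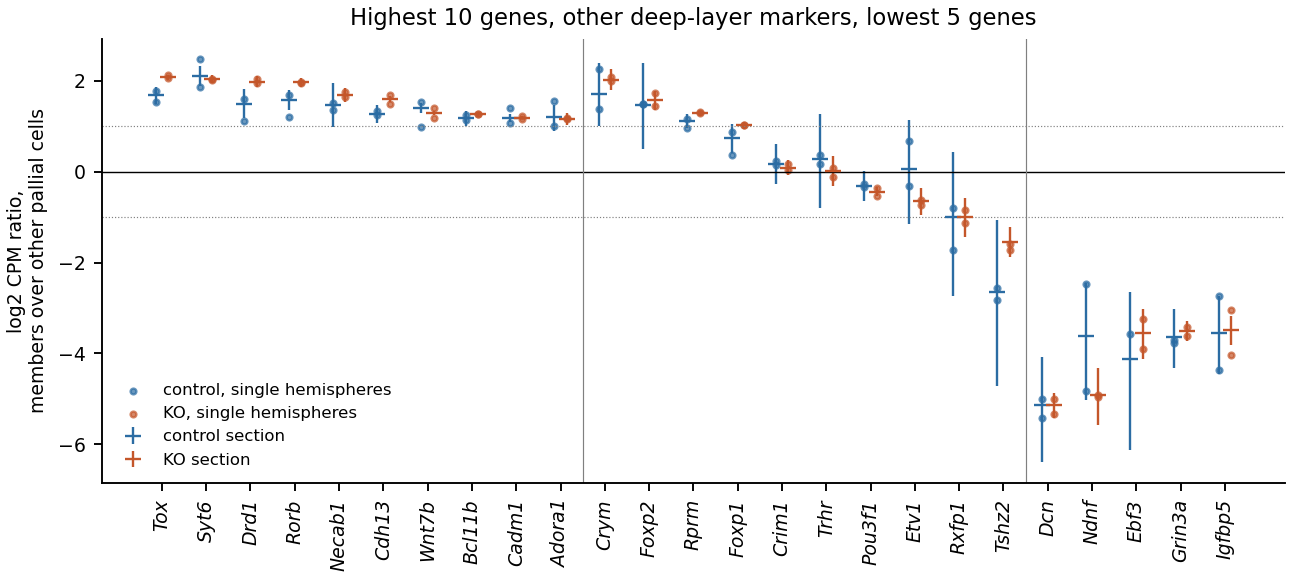
Log2 CPM ratio of members over other pallial cells for the 10 highest and 5 lowest genes at or above the panel's median level in the pallium, and for other deep-layer markers, per section (bars with intervals that pair opposite ends of both Poisson intervals) and per hemisphere (points). *Syt6* is highest in the control (2.10) and *Dcn* lowest in both (-5.12 and -5.14).

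Of the 10 most enriched genes, 4 were at least 2-fold higher in members than in *Slc17a7* and *Nr4a2* cells in both sections, and 9 were so against *Unc5d* and *Sstr2* cells. These genes had been chosen as high against pallial cells that include both classes, so part of this was given. The share of all genes outside the rule that pass the same comparisons was not computed. *Syt6* was at 7321 CPM in control members, 735 in *Slc17a7* and *Nr4a2* cells and 2789 in *Unc5d* and *Sstr2* cells, and at 5076, 790 and 1407 in the KO. *Tox* followed the same pattern, with 8493, 1653 and 1502 CPM in the control and 13293, 2798 and 2251 in the KO. *Adora1* did not separate members from the *Slc17a7* and *Nr4a2* cells, with 3446 against 3654 CPM in the control and 1920 against 1961 in the KO. *Rprm* separated members little from the *Slc17a7* and *Nr4a2* cells, with 10753 against 7879 CPM in the control and 10751 against 8942 in the KO. *Pou3f2*, a POU factor of upper-layer and migrating neurons, was highest in *Unc5d* and *Sstr2* cells, at 40974 CPM in the control and 57259 in the KO, against 12268 and 13231 in members. The control class led by *Unc5d* and *Sstr2* held only 212 cells.

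Of the 2 splits of the members by position, that by distance from the midline gave more genes apart. Members within 300 µm of the midline numbered 343 in the control and 1591 in the KO, against 1226 and 4528 farther out, and their median depths were 0.304 and 0.277 against 0.359 and 0.292. Of 240 genes outside the rule, 36 (15%) were at least 2-fold higher and 29 (12.1%) at least 2-fold lower in medial members in both sections. The 240 held 2 cell cycle, 5 radial glia and 2 Cajal-Retzius genes. Of these, *Ccnd2* and *Top2a*, *Hopx* and *Aldoc*, and *Reln* were among the higher ones. *Ccnd2* had log2 ratios of 2.42 and 1.25, *Top2a* 2.40 and 1.14, and *Reln* 2.65 and 1.81. *Hopx* had 3.19 (-0.11 to 7.36, from 6 and 2 counts) in the control and 1.10 in the KO. In the other pallial cells split at the same line these genes were also higher near the midline, with 1.10 and 0.88 for *Ccnd2*. The median log2 ratio over the 240 genes was 0.02 in the control and 0.09 in the KO. The split was chosen after the sections had been seen.

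Of the axon guidance and adhesion genes, 16 were among the 240, and 6 of these were higher and 3 lower in medial members in both sections, with list medians of 0.19 (over 15 genes with a value) and 0.15. *Epha6*, an ephrin receptor, was at 5119 CPM in medial and 95.3 in other control members, and at 2004 and 131 in the KO. Its log2 ratios were 5.75 (4.21 to 7.67) and 3.93 (3.46 to 4.42), whereas in the other pallial cells split at the same line they were 0.71 and 0.16. *Nrp2*, a neuropilin that binds semaphorins, was at 8260 against 267 CPM in the control and 3577 against 191 in the KO, with 0.20 and 0.17 as the log2 ratios of the other cells. Its relative *Nrp1* was at 20650 against 1754 CPM and at 21410 against 4442. *Epha3*, another ephrin receptor, ran the other way, with -2.64 and -2.09. The neuropilins and *Epha6* thus differed along the midline axis far more within the members than among the cells around them. *Chrm3*, a muscarinic receptor, was at 3374 against 172 CPM in the control and 1345 against 122 in the KO. *Prokr2*, the receptor of prokineticins, had log2 ratios of 3.28 and 2.43, and 2.03 and 2.80 in the other cells. *Crym* and *Calb2*, the gene of the calcium-binding protein calretinin, were also higher, with log2 ratios of 3.97 and 3.58, and of 3.93 and 5.13, but for these the other pallial cells showed ratios of 2.59 and 2.64, and of 2.88 and 3.72.

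The genes low in medial members included *Wnt7b* and *Rorb*. *Wnt7b* was at 3548 CPM in medial and 28890 in other control members, and at 5706 and 32056 in the KO, with log2 ratios of -3.03 (-3.48 to -2.59) and -2.49 (-2.60 to -2.38). In the other pallial cells its ratios were -1.96 and -1.56. *Rorb* (-2.91 and -1.79), *Vcan*, a proteoglycan of the extracellular matrix (-2.42 and -1.30), and *Rprm* (-1.84 and -1.27) were lower too, and in the other cells had -1.56 and -0.96, -0.56 and -0.02, and -1.20 and -0.77. Apart from *Vcan* in the KO, these genes were thus also lower near the midline outside the members. Among the genes of the rule the receptors were low in medial members, with *Mc4r* at 1629 against 20995 CPM in the control and 3084 against 12313 in the KO, and *Ntsr1* at 873 against 8505 and 898 against 4669. Both were also lower near the midline in the other pallial cells, with log2 ratios of -2.26 and -1.06 for *Mc4r* and -3.28 and -2.24 for *Ntsr1*. In medial members *Fezf2* itself was somewhat higher (0.25 and 0.36) and *Tbr1* somewhat lower (-0.45 and -0.24). *Syt6* (1.18 and 0.86) and *Bcl11b* (0.63 and 0.69) were higher, with 1.21 and 1.14 for *Syt6* and 0.17 in both sections for *Bcl11b* in the other cells. *Foxp2* (-1.91, -5.55 to 0.60, and -2.75) and *Foxp1* (-1.68 and -1.43) were lower in medial members. In the other cells *Foxp2* had 0.02 and -0.33, and *Foxp1* -0.75 and -0.39. The values of the rule genes are a description, since members low in the receptors needed more *Fezf2* to pass.

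**Figure D5:**
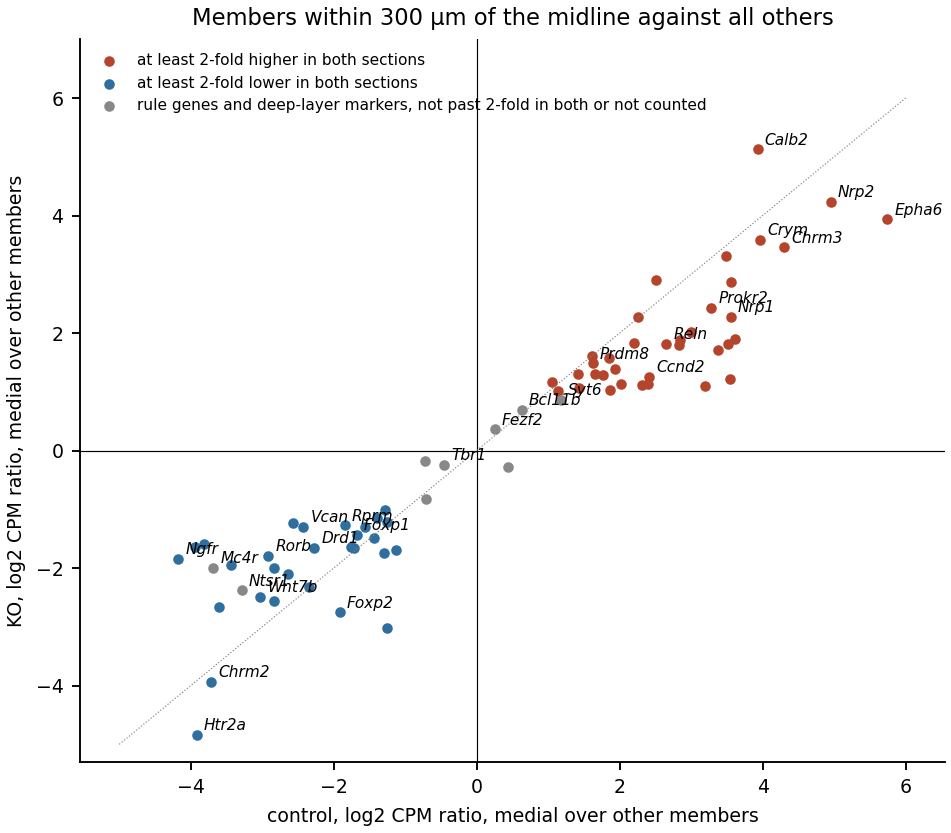
Log2 ratio of members within 300 µm of the midline over other members, control (x axis) against KO (y axis), for the genes at least 2-fold higher or lower in both sections and for rule genes and deep-layer markers (grey). *Epha6* (5.75 and 3.93) and *Nrp2* (4.95 and 4.23) lie at the high end and *Wnt7b* (-3.03 and -2.49) toward the low end in both sections.

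Outer and inner members, split at the median depth of each section, differed less. Of the 240 genes 1 (0.417%) was at least 2-fold higher and 18 (7.5%) were at least 2-fold lower in outer members in both sections. The higher one was *Pou3f2*, with log2 ratios of 1.02 and 1.03, against -2.08 and -2.75 in the other pallial cells, though it did not reach 2-fold in both sections within either pair of hemispheres alone. *Sulf2*, an extracellular sulfatase, was at 2879 CPM in outer and 13662 in inner control members, and at 1627 and 9422 in the KO. *Grm3*, a metabotropic glutamate receptor, was at 4532 against 17569 CPM and at 4212 against 12715. *Prss12*, a secreted protease (-2.17 and -3.33), *Drd1* (-1.64 and -1.38) and *Nxph4*, a neurexophilin (-1.63 and -1.13), were also lower in outer members. Of the rule genes *Fezf2* was higher in outer members (0.42 and 0.61) and *Mc4r* lower (-1.15 and -0.72). *Foxp2* had 0.33 (-1.38 to 2.07) in the control, from 14 and 11 counts, and -0.87 (-1.22 to -0.51) in the KO.

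Between the sections, most genes of the members stayed within a factor of 2. Among 250 genes at or above the median level in members, 21 (8.4%) were at least 2-fold higher and 13 (5.2%) at least 2-fold lower in KO members, and the median log2 ratio was -0.05. In the other pallial cells 17 of the same genes (6.8%) were higher and 9 (3.6%) lower, 10.4% in all. After thinning of the KO 7.2% were higher and 6.8% lower in members. Of the genes called in members, 20 of 21 and 11 of 13 had the same direction in the other pallial cells, and 13 passed 2-fold there. Most genes called in members thus ran the same way in the cells around them, and 13 of the 34 by 2-fold. Over the 250 genes, members and other pallial cells had a Spearman rho of 0.73. The share of all 250 with the same direction was not computed, so the agreement is not read as particular to the called genes.

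*Cd24a*, a cell surface glycoprotein of young neurons, had the largest ratio. It was at 12040 CPM in control and 55420 in KO members, a log2 ratio of 2.20 (2.09 to 2.32), against 2.13 in the other pallial cells. With the KO thinned to the control total and the rule applied again it was 2.07. *Epha3*, an ephrin receptor (1.70, 1.39 to 2.01), and *Kcnk2*, a potassium channel (1.68, 1.13 to 2.27), were also higher in the members, with thinned ratios of 1.56 and 1.53, and in the other cells (1.90 and 1.38). The kinase *Camk4* was at 272 CPM in control and 839 in KO members (1.63, 0.87 to 2.47), with 1.47 after thinning and 0.44 in the other cells. *Unc5d* was at 129 and 424 CPM (1.72, and 1.06 with -0.67 to 2.89 after thinning), but the rule limited it in members. *Hopx*, of radial glia, and *Top2a* had ratios of 1.87 and 1.68, and of -0.45 (-3.05 to 1.99) and -0.25 (-1.40 to 0.89) when the rule was applied to the thinned KO. For *Hopx* and *Top2a* no direction could be read. *Ccnd2*, the more abundant cell cycle gene, was lower in KO members, at 29956 and 14331 CPM (-1.06, -1.15 to -0.97), and had -1.16 after thinning and -1.08 in the other cells. Its ratio was -1.61 (-1.73 to -1.49) in members within 300 µm of the midline. In the members farther out it was -0.45 (-0.59 to -0.31), short of 2-fold.

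*Epha6* and *Chrm3*, most of whose transcripts in members lay near the midline, were lower in KO members. Their log2 ratios were -1.18 (-1.60 to -0.74) and -1.16 (-1.66 to -0.64), where the other pallial cells had -0.38 and 0.05. With the KO thinned, *Epha6* had -1.17 (-1.97 to -0.40) and *Chrm3* -0.84 (-1.73 to 0.03), short of 2-fold. Both genes varied between hemispheres, with *Epha6* at 990 and 2126 CPM in the control and 459 and 784 in the KO, and *Chrm3* at 763 and 1418 against 337 and 548. For both, the lower control hemisphere was less than 2-fold above the higher KO hemisphere. In medial members their log2 ratios were -1.35 (-1.80 to -0.89) and -1.33 (-1.88 to -0.75), and in other members, which had few of their transcripts, 0.46 (-1.11 to 2.41) and -0.49 (-1.77 to 0.98). *Pcdh8*, a protocadherin, was lower both in members (-1.32, and -1.51 after thinning) and in the other cells (-1.03). *Sp9*, a transcription factor of interneurons, had -1.34 in members and -0.04 in the other cells, but -0.81 (-1.96 to 0.30) in the thinned members. *Igf2*, a growth factor of meninges and vessels, had -1.27 and -0.31, with -1.25 after thinning, and *Ptprm*, a receptor phosphatase, -1.24 and -0.85, with -1.21. *Spp2* had -1.19, with -1.42 (-3.34 to 0.29) after thinning, and *Nxph1*, a neurexophilin of interneurons, -1.15, with -0.68 (-1.58 to 0.19). *Sp9*, *Chrm3* and *Nxph1* were thus not past 2-fold with the section totals made equal.

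Between medial members alone, 66 of 247 genes (26.7%) were at least 2-fold apart, 34 higher and 32 lower in the KO, (13.8% and 13%). Between the other members it was 36 of 250 (14.4%), with 8.8% higher and 5.6% lower. With the KO thinned, 53 of 241 genes (22%) were apart between the medial members and 41 of 250 (16.4%) between the others. *Cd24a* was higher in both, with 2.08 and 2.24. The control had 343 medial members, and some genes had few counts in them, such as *Prss12* with 1 and *Ngfr* with 2. Their log2 ratios between medial members were 1.27 (-1.81 to 7.11) and 1.24 (-1.03 to 4.67). The shares of genes apart in medial and other members thus did not rest on like counts, and this was not adjusted for. Whether both sections cut the midline cortex at the same level was not tested.

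Of the 12 deep-layer genes outside the rule, 10 were at or above the median level in members. Between the sections 1 of these was at least 2-fold higher in KO members and 0 were lower. Their median log2 ratio was 0.07, and 6 of the 10 had a positive ratio. *Syt6* was lower in KO members, with -0.53 (-0.70 to -0.36), and had -0.46 in the other pallial cells. The gene called higher was *Foxp2*, by 1.10 (0.42 to 1.85), at 357 and 767 CPM, and by 1.01 in the other pallial cells. Its relative *Foxp1*, a forkhead factor of layers 3 to 6, had 0.87 (0.61 to 1.13) and 0.59. The rule genes had ratios of -0.57 for *Fezf2*, -0.70 for *Mc4r*, -0.83 for *Ntsr1* and -0.21 for *Tbr1*, and in the other pallial cells of -0.59, -0.87, -0.72 and -0.12. With the rule applied to the thinned KO, the member ratios were -0.13, -0.13, -0.44 and -0.09. As these genes set membership, their ratios are a description.

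The position of interneurons was set against that of the members. The cells counted by *Lhx6* were not required to hold *Sst*, the gene that drives Cre, and cells with *Sst* were counted apart. Both kinds were taken from the pallial cells. The interneurons were counted after thinning to 25 transcripts, which left out shallower cells. Of the members 36.8% in the control and 52.4% in the KO had a cell with *Lhx6*, the LIM homeobox gene of interneurons from the medial ganglionic eminence, and *Gad1* or *Gad2* within 50 µm. The other pallial cells had 35.5% and 57.8%. Thinning kept 11445 pallial cells of the control section and 31606 of the KO section. Of these, 206 and 542 were *Lhx6* cells of this kind. More KO cells could thus be counted as interneurons, and the shares within 50 µm were not adjusted for this. Cells with an *Sst* transcript lay within the same distance of 25.9% and 31.1% of members, and of 29.2% to 30.8% (the interval in the control) and 34.2% of other cells. Members and other pallial cells thus differed between the sections in the same direction for the *Lhx6* cells. Whether interneurons lay closer to members in the KO, beyond the unequal number of cells kept, was not tested.

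Members were brighter in both stains than the other pallial cells as a whole. The PolyT stain of messenger RNA had a median of 428783 instrument units per µm³ in control members and 331938 in the other pallial cells, and 611656 and 491882 in the KO. DAPI, the stain of DNA, was at 1007420 and 685703 in the control and 1167852 and 926640 in the KO. Members held 32.5 panel transcripts per 1000 µm³ in the control and 147 in the KO, against 30.1 and 129 in the other cells. Brightness did not set the members apart from every class, since *Unc5d* and *Sstr2* cells had a higher DAPI median in both sections (1074589 and 1469171) and a PolyT median of 403148 in the control and 628549 in the KO. The stains were recorded on each section's own scale, so their levels were not compared between the sections.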

How the data were processed

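MERFISH was run by the authors on 1 coronal E16.5 section per genotype. The deposited counts were raw numbers of decoded molecules per segmented cell for 500 genes and 50 blank barcodes, not normalized, with cells of 0 transcripts kept. The deposited metadata gave cell positions and volumes (other units, µm and µm³) and the summed PolyT and DAPI intensity per cell, left by the authors on each section's own scale. The deposited molecule lists gave the position, plane (7 planes) and cell of each molecule. The segmentation model is not given in the sources used here. A transcript total in the metadata and the authors' cell names were not used.

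Python 3.11.15, numpy 2.4.6, scipy 1.17.1, pandas 2.3.3 and matplotlib 3.10.9 were used. The minimum was 20 panel transcripts per cell, and no doublet caller was run. Members and gene lists were chosen with earlier results of these data known. The pallium was outlined on a 25 µm grid (smoothing SD 50 µm) where transcripts of 7 pallial genes, *Fezf2* and *Tbr1* included, outnumbered those of 14 subpallial genes (over 50% of both), with 5 pallial genes, without these 2, as the alternative. Bins with under 1 cell or under 4% of transcripts in these genes, and parts under 0.3 mm², were left out. Relative depth was taken as outer distance over the sum of outer and inner distances, and members led by the excluded pairs were found with the pairs exchanged in the rule. The outline settings, the midline set by hand, the medial limit of 300 µm, the split at the median depth and the landmark genes were chosen after the sections had been seen.

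CPM is counts per 1000000 panel transcripts of the cells concerned, with no pseudocount. Counts carry exact Poisson and shares exact binomial (Clopper-Pearson) 95% intervals. A ratio's interval sets the low end of one group against the high end of the other. With 1 section per group no test was possible, and a gene was called past 2-fold. Thinning took each cell to 25 transcripts, leaving out shallower cells, or kept 21.2% of KO transcripts so that the totals were equal. Scripts were tested on simulated counts. Named genes were those of the rule, the 10 highest and 5 lowest against other pallial cells, the 8 highest and 8 lowest between sections, all at or above the panel median, and members of the lists, with genes of the splits within members chosen after their values were seen. Values of some genes that these rules name are not reported here.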

Additional observations from a re-analysis of the deposited data

How the results depend on the processing

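No paired analysis was possible because each group was 1 section. The log2 ratio of the member share, KO over control, was 1.09 for all section cells and became 0.90 with a minimum of 50 transcripts, 1.82 with none, 0.58 and 2.05 with at least 2 or 5 rule counts, 0.38 with at least 6%, and 0.97 without *Tbr1*, and it reversed to -0.27 with cells thinned to 25 and to -0.36 with the KO thinned to the control total. In the pallium it was 0.85, with 0.50, 1.78, 0.34, 1.80, 0.14 and 0.72 under the same settings, 0.65, 1.15 and 1.01 for pairings of single hemispheres and 0.48 with the outline drawn without rule genes. It reversed to -0.55 and -0.51 when thinned, and to -0.56, -0.67, -0.36 and -0.47 in the thinned hemisphere pairings. The KO median depth stayed the smaller one. The difference of -0.0550 became -0.0815 and -0.0381 when thinned, -0.0808, -0.0410 and -0.0221 between hemispheres, -0.0644 with the other outline and -0.0668 beyond 300 µm of the midline. Of the genes higher in members, 20 at 2-fold, there were 43 at 1.5-fold, 3 at 3-fold and 4 after weighting by depth. The 34 genes apart between sections became 56 with a minimum of 50 transcripts, 71 and 58 against control hemisphere 2, 90 over all genes counted and 85 at 1.5-fold. The balance of 21 higher and 13 lower in the KO turned to 20 and 36 with that minimum. It was 25 and 46, and 24 and 34, against control hemisphere 2, 57 and 33 over all genes counted, and 39 and 46 at 1.5-fold. The difference in members led by *Fezf2* was 2.81 percentage points, 5.91 thinned and 6.41 between hemispheres 1, and reversed to -3.02 and -4.32 against control hemisphere 2. The difference in members among nearest cells was 25.0 points, 13.5 with a minimum of 50 and -7.88 with the KO thinned. That in interneurons near members was 15.6 points, 5.55 within 25 µm, 5.21 for *Sst* cells and 39.9 unthinned. The thinned values of it were not adjusted for the larger number of KO cells kept by thinning. The genes of the medial split kept a count of 51 to 69 in every alternative run. The thinned hemisphere pairings, the values beyond 300 µm of the midline and the alternatives of the medial and outer splits were chosen after seeing the data. The cause of these shifts was not tested. Control depth limits genes of few counts, since control members held 69936 transcripts in all.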

Other observations

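Median depth along the wall differed between members that held different markers. Members with a *Crym* transcript had a median depth of 0.309 in the control and 0.260 in the KO, but most *Crym* counts were in medial members, whose own medians were 0.304 and 0.277. Those with *Rprm* lay at 0.360 and 0.303. Whether a transcript was seen depends on the number of transcripts in the cell.

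Members were spread unevenly around the hemispheres. As a percent of pallial cells they were 13.8% within 300 µm of the control midline and 27.8% within 300 µm of the KO midline, against 6.97% and 18.4% from there to 800 µm. From 800 to 1300 µm the shares were 9.89% and 15.7%, from 1300 to 1800 µm 13.1% and 19.9%, and beyond 1800 µm 4.35% and 13.8%. With every cell thinned to 25 transcripts the medial shares were 6.28% and 5.94%, and those from there to 800 µm 5.03% and 4.76%. From 800 to 1300 µm they were 5.81% and 3.54%, from 1300 to 1800 µm 7.28% and 3.59%, and beyond that 2.60% and 2.86%. The control share was thus highest from 1300 to 1800 µm after thinning, and the KO share in the medial zone.

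The molecules in imaging plane 6 numbered 33.6% of those in plane 0 in control members and 54.9% in KO members, against 29.6% and 49.3% in the other pallial cells. Of all *Fezf2* molecules, 14.5% in the control and 20.2% in the KO lay outside segmented cells.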
